A study of Mus musculus with 9 samples.

Results

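Fatty acid oxidation genes of mitochondria and peroxisomes were followed in RNA sequencing libraries of mouse kidney cortex, as a set of 42 genes among 17963 in the table. The members were chosen by name, with earlier results of these data known. They were 24 genes of the mitochondrial pathway, 13 peroxisomal genes, 3 genes of ketone body use and the regulators Ppara and Ppargc1a. All 42 were found by symbol, and all 42 passed the filter on low counts. The study had 3 groups of 3 libraries, taken on day 4 from wild type mice. Control mice received saline into the peritoneum and pure water into the stomach. Cisplatin mice received cisplatin, a platinum drug that damages kidney tubules, into the peritoneum and pure water into the stomach. The third group received cisplatin in the same way and YSJZD, the Yishen Jiangzhuo decoction named in the study's title, into the stomach, and is called the YSJZD group here. Both of the last groups therefore carried cisplatin, and no group received YSJZD without it. The sources do not give a dose, the age of the mice or the composition of the decoction, and they do not say outright that each sample came from its own mouse, so the spread behind the p-values may be in part technical.

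Mitochondrial β-oxidation shortens fatty acids step by step. Long-chain acids are first activated and carried across the inner membrane as carnitine esters, and chain-length-specific dehydrogenases, hydratases and thiolases then release acetyl-CoA and pass electrons to the respiratory chain. Peroxisomes start the breakdown of very long and branched chains, which mitochondria complete. The proximal tubule depends on this fuel, and PPARA, a nuclear receptor activated by fatty acids, with its coactivator PGC-1α (Ppargc1a), raises transcription of many genes of the pathway.

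Library totals ran from 15029286 to 16690482 expected counts. Levels are given as CPM, counts scaled to the TMM-adjusted library total. Genes are ranked against each other, or set as a ratio, only in the deposited FPKM, which is per transcript length. Sums and shares given in CPM or counts are not corrected for length. The labelled tissue held its defining genes: the 29 proximal tubule markers summed to 80576 to 98631 CPM in control, 8093 to 12056 in cisplatin and 30995 to 50209 in YSJZD libraries, and 24 of 29 fell with cisplatin. The marker Kap alone took 42347 to 61121 CPM in control, 2041 to 5179.8 in cisplatin and 9379.9 to 21527 in YSJZD libraries, so the sum follows this gene in large part. Of the markers of other nephron segments, 7 of 8 thick ascending limb and 4 of 4 distal convoluted tubule genes fell with cisplatin: thick ascending limb markers (8 genes) summed to 4332 to 8590.3, 881 to 1917 and 2176 to 4327 CPM in the same order, and distal convoluted tubule markers (4 genes) to 558 to 749, 23.1 to 101 and 179 to 242 CPM. Of 9 collecting duct markers 4 fell and 1 rose, and of 6 podocyte markers 0 fell and 3 rose. Among all tested genes 26.0% were called lower and 28.6% higher with cisplatin. Collecting duct markers summed to 499 to 693, 327 to 725 and 608 to 818 CPM, and podocyte markers to 204 to 268, 207 to 353 and 183 to 205 CPM. Summed markers of tubular injury (9 genes) ran from 320.1 to 353 CPM in control, 15125 to 35119 in cisplatin and 11929.8 to 15945 in YSJZD libraries. Macrophage markers (9 genes) summed to 113 to 167, 1163 to 2627 and 411 to 759 CPM. Neutrophil markers (9 genes) summed to 1.32 to 1.60, 38.5 to 102 and 3.80 to 8.76 CPM. Fibroblast and pericyte markers summed to 137 to 260.5 CPM in control and to 646, 749 and 274 CPM in cisplatin replicates 1, 2 and 3. Erythroid markers (6 genes) stood at 263 to 604 CPM in control and at 0.934 to 1.36 CPM in all 6 other libraries. Adipocyte markers (6 genes) summed to at most 5.66 CPM (YSJZD replicate 1). The part of these cell types in the results on the 42 genes was not tested, and in bulk tissue fewer cells of a type and less RNA per cell cannot be told apart.

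The 42 genes together took 26459.9, 27202 and 24209 CPM in the control libraries. In the cisplatin libraries they took 7339, 8494 and 8673 CPM, and in the YSJZD libraries 11787, 18158 and 13906 CPM. The 3 groups did not overlap. As a share of the control mean, the sum stood at 28.3% to 33.4% with cisplatin and at 45.4%, 70.0% and 53.6% with YSJZD, and YSJZD replicate 2 was highest in both this sum and the proximal tubule sum. The sums differed between roles. The medium-chain acyl-CoA synthetases stood at 3.86% to 4.76% of the control mean with cisplatin and the ketone body genes at 7.84% to 9.36%, whereas the 4 genes of activation and import stood at 99.9% to 108%. Such sums weigh abundant genes most. Acsm2 alone took 5738 to 7493 CPM in control, and the median log2 fold change of the 42 with cisplatin was -0.64. In activation and import, Cpt1a took 494 to 554 of 944 to 1003 CPM in control, and single genes stood at 66.6% (Cpt2) to 131% (Slc25a20) of control with cisplatin.

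**Figure D1:**
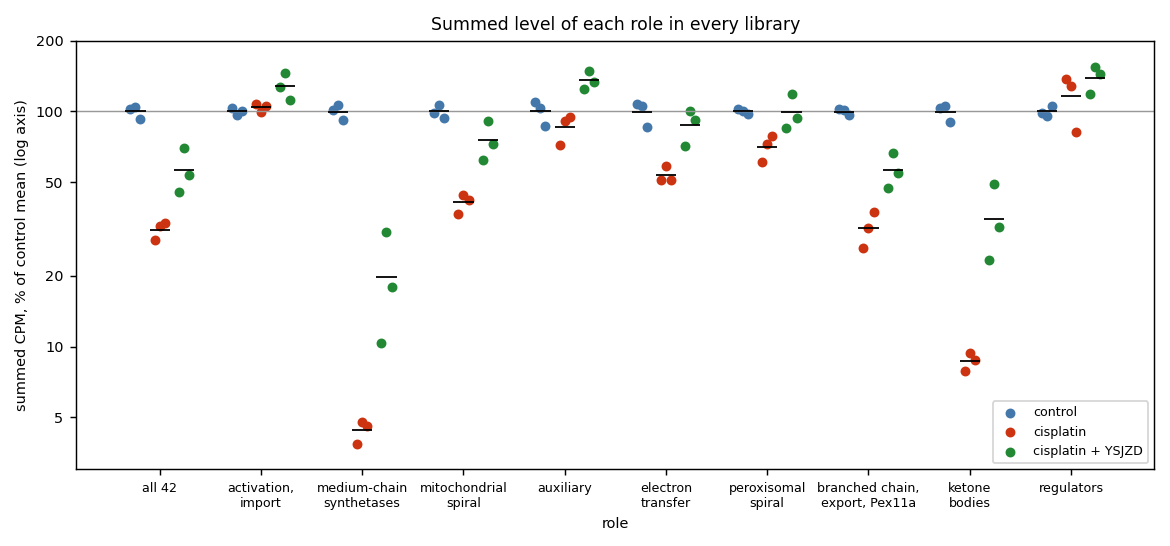
Summed CPM of the genes of each role, as a percent of the control mean on a log axis, with 1 point per library and a bar at the group mean (blue control, red cisplatin, green cisplatin + YSJZD). With cisplatin the medium-chain synthetases and ketone body genes lie lowest, below 10% of control, and the activation and import genes stay at 99.9% to 108%. Each sum weighs the most abundant genes of its role most.

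Cisplatin against control asked what cisplatin had changed by day 4. Of the 42 members, 26 were called lower (adjusted p under 0.05 in edgeR's quasi-likelihood test with Benjamini-Hochberg adjustment over 13954 genes), where 26.0% of all tested genes were called lower. Another 5 were called higher, where 28.6% of all tested genes were. Together 31 members were called, where 54.6% of all tested genes were. The libraries of the groups did not overlap for 32 members (63.4% of all tested genes). Of the 26, 19 were at least 2-fold lower (14.4% of all tested genes), and none of the 5 was 2-fold higher (18.6%). These counts depend in part on the choice of members, made with earlier results of these data known. Of 45 other tested genes of fatty acid oxidation, 7 were called at least 2-fold higher and 24 at least 2-fold lower. The members' median log2 fold change was -0.64, with 0.04 over all tested genes. The mitochondrial members (15 of 24 lower, 2 higher) had a median of -0.54 and the peroxisomal members (7 of 13 lower, 2 higher) of -0.85. Values after ± are standard errors of the log2 fold change from this fit of 3 libraries per group.

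YSJZD against cisplatin asked what the decoction changed in mice given cisplatin. Here 28 of 42 members were higher, where 17.4% of all tested genes were, and 14 of them were at least 2-fold higher (7.77%). None was lower, where 18.0% of all tested genes were: edgeR, DESeq2 and limma-voom each called 0 members lower, also at an unadjusted p under 0.05. The called share of all tested genes was 35.4%, and the libraries did not overlap for 30 members (47.3% of all tested genes). The median was 0.72, with -0.01 over all tested genes. YSJZD against control asked what still differed from control. It gave 12 members lower, where 9.37% of all tested genes were, and 10 higher, where 9.93% were (22 called, where 19.3% were). At least 2-fold were 8 of the 12 lower (3.95% of all tested genes) and 3 of the 10 higher (6.10%), and the libraries did not overlap for 31 members (40.4%). The median was -0.07, with 0.01 over all tested genes, and without a composition factor in the scaling it was 0.12, with 0.20 over all tested genes. All pairs of comparisons share libraries, so their values are set side by side below and their agreement is not counted.

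**Figure D2:**
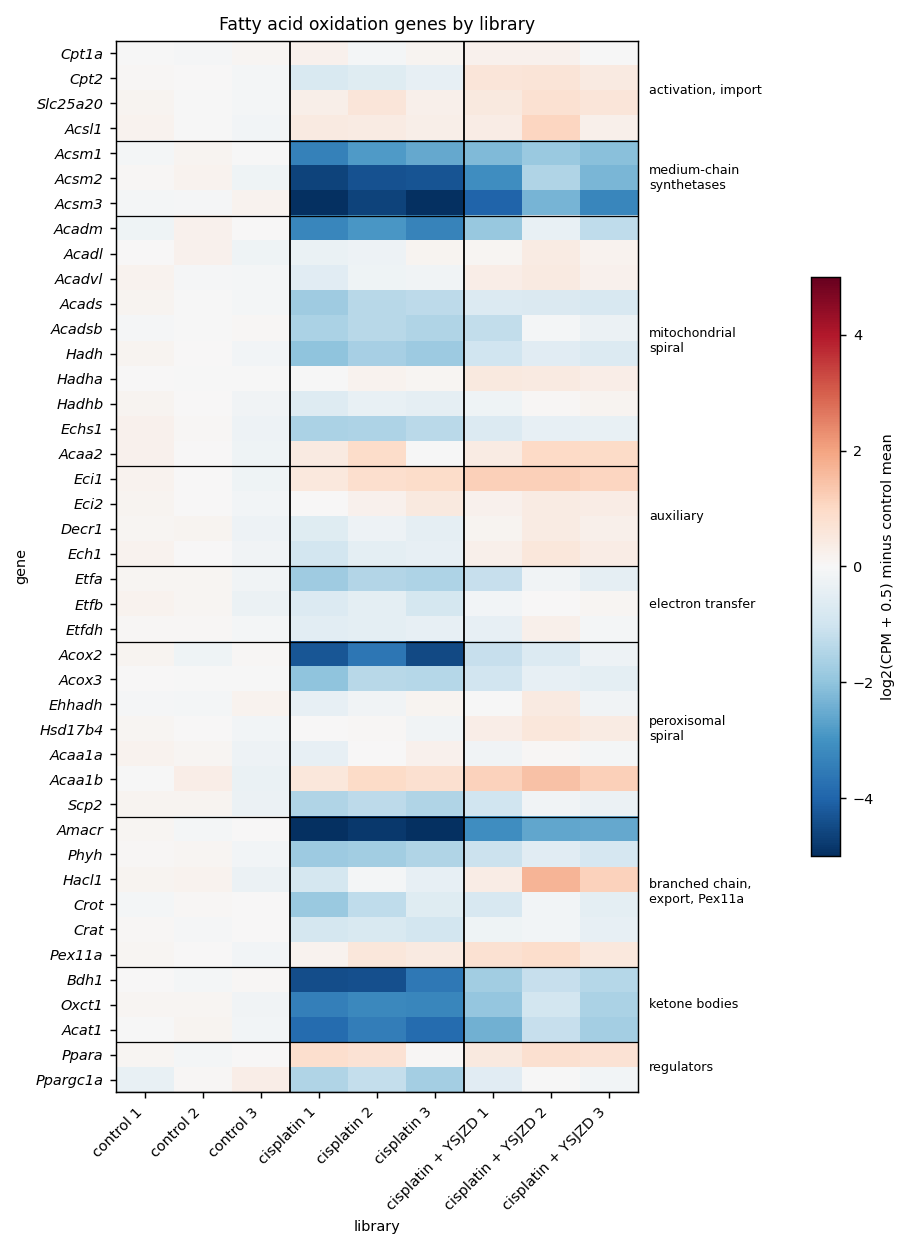
Difference of log2(CPM + 0.5) from the control mean for each of the 42 genes (rows, grouped by role) in each of the 9 libraries (columns). Blue is lower and red higher: the darkest cisplatin rows include Acsm3, Acsm2, Amacr, Acox2, Bdh1 and Acat1, and the rows of Cpt1a, Acadl, Eci2 and Ehhadh stay pale.

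Of the 4 genes of activation and import, 1 was lower and 1 higher with cisplatin and 2 were not called. Cpt1a, the outer membrane carnitine palmitoyltransferase that commits long-chain acids to oxidation, stood at 513, 494 and 554 CPM in control, 596, 491 and 577 in cisplatin and 599.9, 596 and 506 in YSJZD libraries. The groups overlapped in all 3 comparisons and none was called (0.09 ± 0.14, 0.03 ± 0.14 and 0.12 ± 0.14 for cisplatin against control, YSJZD against cisplatin and YSJZD against control, edgeR adjusted p of 0.601, 0.871 and 0.577). Cpt2, which remakes acyl-CoA inside the inner membrane, was at 205, 196 and 184 CPM in control, 115, 127 and 147 in cisplatin and 299, 306 and 265 in YSJZD libraries. The 3 groups of Cpt2 did not overlap: it fell with cisplatin (-0.59 ± 0.13, edgeR adjusted p = 0.00389) and was higher with YSJZD than in cisplatin (1.16 ± 0.13, adjusted p = 0.000263) and than in control (0.58 ± 0.13, adjusted p = 0.014). That last call was lost without control replicate 2 or 3 (adjusted p of 0.0536 and 0.053). Slc25a20, the carnitine-acylcarnitine carrier of the inner membrane, rose with cisplatin from 52.6 to 60.5 CPM to 66.2 to 85.1 CPM (0.39 ± 0.14, edgeR adjusted p = 0.0379), a call lost in 5 of 17 alternative fits. It stood at 77.7 to 94.3 CPM with YSJZD, above all control libraries (0.62 ± 0.14, adjusted p = 0.0124; 0.0512 without control replicate 2). Acsl1, a long-chain acyl-CoA synthetase, was not called in any comparison of the main fit (0.38, 0.23 and 0.61). Its level in YSJZD replicate 2 (428 CPM) lay apart from 259 and 239 CPM in replicates 1 and 3. All its cisplatin libraries (274, 271 and 244 CPM) lay above all control libraries (225, 199.5 and 183 CPM). This rise was called on the 6 libraries compared (edgeR adjusted p = 0.0381), without YSJZD replicate 2 (0.0378) and on library totals (0.0244).

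Medium-chain acyl-CoA synthetases, which activate shorter acids and aromatic acids in the mitochondrial matrix, held the most abundant transcripts of the set in control. In FPKM, Acsm2 stood first of the 42 in control (961 ± 106, SD) and Acsm3 second (880.2 ± 136), and their spreads overlap. In cisplatin libraries they were ranks 30 and 34 of 42. Acsm2 was at 7059.9, 7493 and 5738 CPM in control, 274, 326 and 336 in cisplatin and 789.6, 2339.9 and 1389 in YSJZD libraries. Every cisplatin library lay below every other, and YSJZD replicate 1 was the lowest and replicate 2 the highest of their group. Acsm2 fell with cisplatin (-4.44 ± 0.37, edgeR adjusted p = 9.23e-06), was higher with YSJZD than with cisplatin (2.27 ± 0.34, adjusted p = 0.000911) and remained below control (-2.17 ± 0.34, adjusted p = 0.00213). Acsm3 was at 2194, 2271 and 2632 CPM in control, 70.5, 96.0 and 67.7 in cisplatin and 148, 469.7 and 248 in YSJZD libraries. Its log2 fold changes were -4.92 ± 0.40, 1.89 ± 0.36 and -3.04 ± 0.37 in the same order (edgeR adjusted p of 8.12e-06, 0.00307 and 0.000563), and -3.04 was the lowest of the 42 against control. Acsm1 went from 137 to 159.9 CPM in control to 13.6 to 24.5 with cisplatin and 31.4 to 40.2 with YSJZD, and was called in the same directions. These paralogs lie close together and share sequence, so the split of reads among them is RSEM's estimate. Acsm3 also overlaps Eri2, which took 1656 counts over all libraries against 119009 for Acsm3.

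The mitochondrial spiral split by gene: 6 of 10 members fell with cisplatin, 5 of them at least 2-fold, and 4 were not called. Acadm, the medium-chain acyl-CoA dehydrogenase, was at 1446, 1976 and 1700.1 CPM in control, 175, 225 and 167 in cisplatin and 458, 1310.0 and 711 in YSJZD libraries. The 3 groups did not overlap, and YSJZD replicate 2 came nearest to control. Acadm fell with cisplatin (-3.17 ± 0.35, edgeR adjusted p = 4.6e-05) and was higher with YSJZD than with cisplatin (2.13 ± 0.34, adjusted p = 0.00125). Against control the YSJZD value was -1.05 ± 0.33 (adjusted p = 0.048), a call that 10 of 17 alternative fits lost (adjusted p up to 0.140). Hadh, Acads, Acadsb and Echs1, enzymes of short-chain substrates, fell by 1.83, 1.48, 1.49 and 1.49 on the log2 scale with cisplatin and were higher with YSJZD than with cisplatin by 1.09, 0.74, 1.03 and 1.00. With YSJZD they stood at 59.7%, 59.9%, 72.4% and 70.8% of their control means. Of these, Acadsb was not called against control, and the call of Echs1 (edgeR adjusted p = 0.0447) was kept in 6 of 17 alternative fits.

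Neither dehydrogenase of longer chains was called with cisplatin. Acadl, for long chains, was at 277 to 377 CPM in control, 257 to 361 in cisplatin and 349.6 to 437 in YSJZD libraries, and was called in none of the comparisons. Without cisplatin replicate 3 its value for YSJZD against cisplatin was 0.54 (edgeR adjusted p = 0.0404). Its value against control with cisplatin was -0.15, and 0.08 when the composition factor was left out. Acadvl, for very long chains, was at 402, 339.9 and 337 CPM in control, 241, 305 and 315 in cisplatin and 448, 483 and 415 in YSJZD libraries. Its cisplatin value was not called (-0.33 ± 0.15, edgeR adjusted p = 0.0838), and it was higher with YSJZD than with cisplatin (0.65 ± 0.15, adjusted p = 0.00792). Acaa2, a mitochondrial 3-ketoacyl-CoA thiolase, was at 122, 105 and 89.8 CPM in control, 143, 200.2 and 102 in cisplatin and 141, 209 and 204 in YSJZD libraries. Cisplatin replicate 3 lay within the control range, and only YSJZD against control was called (0.81 ± 0.25, edgeR adjusted p = 0.0461), a call kept in 8 of 17 alternative fits. The value with cisplatin was called without cisplatin replicate 3 (0.70, adjusted p = 0.0265) and on library totals (0.74, adjusted p = 0.0327).

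Hadha and Hadhb encode the α and β subunits of the trifunctional protein, which carries out the last 3 steps on long chains. Hadha was at 264, 257 and 259 CPM in control, 259.6, 293 and 277 in cisplatin and 365, 357 and 327 in YSJZD libraries. All 3 YSJZD libraries lay above the other 6. Hadha was not called with cisplatin (0.09 ± 0.12, edgeR adjusted p = 0.534). It was higher with YSJZD than with cisplatin (0.34 ± 0.12, adjusted p = 0.0443), a call kept in 3 of 17 alternative fits, and than in control (0.43 ± 0.12, adjusted p = 0.0282), kept in 11 of 17. Hadhb was at 262, 241 and 213 CPM in control, 152, 183 and 173 in cisplatin and 207, 248 and 264 in YSJZD libraries. The cisplatin libraries lay below both other groups, which overlapped. Hadhb fell with cisplatin (-0.50 ± 0.14, edgeR adjusted p = 0.0142), was higher with YSJZD than with cisplatin (0.50 ± 0.14, adjusted p = 0.0217) and was at 0.01 ± 0.14 against control (adjusted p = 0.985). Each of its calls was kept in 14 of 17 alternative fits: both ended without cisplatin replicate 1, the first also without control replicate 1 and on library totals (-0.26, adjusted p = 0.125), and the second also without YSJZD replicate 2 or 3. The FPKM ratio of Hadha to Hadhb was 0.517 to 0.622 in control, 0.828 to 0.881 in cisplatin and 0.635 to 0.904 in YSJZD libraries. The genes lie head to head on chromosome 5 with 272 bases between them (RefSeq, GRCm38.p6). The stretch below, from that interval at chr5:30155163-30155247 on the strand of Hadhb, is shown because both genes start beside it; capitals mark CG dinucleotides, and it holds 2 matches to the GC box GGGCGG on either strand.
Hadhb: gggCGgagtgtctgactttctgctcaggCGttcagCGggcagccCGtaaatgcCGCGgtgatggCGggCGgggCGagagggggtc

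When the mitochondrial enzymes were arranged by chain length, a grouping chosen after the values were seen and therefore given with no test, the summed level of 8 long-chain genes (Cpt1a, Cpt2, Slc25a20, Acsl1, Acadl, Acadvl, Hadha and Hadhb) was 2059.9 to 2261 CPM in control, 1962 to 2159.8 in cisplatin and 2466 to 2949 in YSJZD libraries. Cisplatin and control overlapped in this sum. The summed level of 8 genes for medium, short and branched chains (Acsm1, Acsm2, Acsm3, Acadm, Acads, Acadsb, Hadh and Echs1) was 11485 to 13308 CPM in control, 926 to 1138 in cisplatin and 2182, 5138 and 3300.0 in YSJZD replicates 1, 2 and 3. With cisplatin the long-chain genes had 2 called lower, 1 higher and a median of -0.03, and the others had 8 of 8 called lower and a median of -2.38. Acsm2 and Acsm3 took 5738 to 7493 and 2194 to 2632 CPM in control, so the second sum follows these genes in large part. Acaa2, which was not called with cisplatin in the main fit (0.49), was placed in neither group. Had it been placed in the second group, not all genes of that group would have been called lower. These counts therefore depend in part on the choice of genes.

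**Figure D3:**
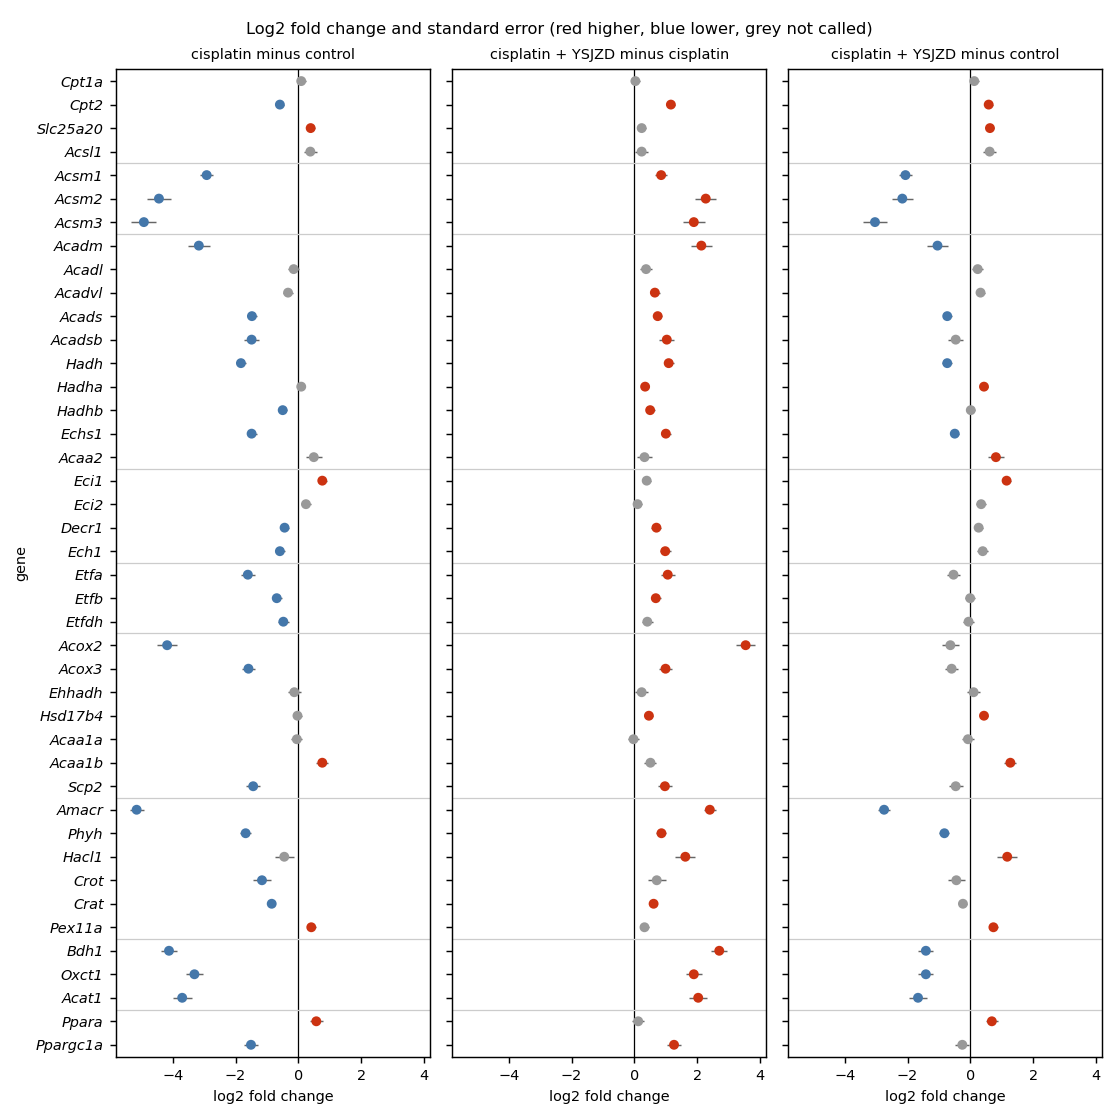
Log2 fold change (points) and its standard error (lines) of the 42 genes in each comparison, with red for genes called higher, blue for genes called lower and grey for genes not called. In the left panel the points reach from -5.15 (Amacr) to 0.76 (Eci1 and Acaa1b), and in the middle panel no point is blue.

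Auxiliary enzymes let unsaturated acids into the spiral. Eci1, an enoyl-CoA isomerase, was at 109, 97.7 and 81.7 CPM in control, 137, 172 and 181 in cisplatin and 219, 219.9 and 203 in YSJZD libraries. The 3 groups did not overlap, in rising order. Eci1 rose with cisplatin (0.76 ± 0.15, edgeR adjusted p = 0.00174) and was higher with YSJZD than in control (1.15 ± 0.15, adjusted p = 0.000846), and its value for YSJZD against cisplatin was 0.39 ± 0.15 (adjusted p = 0.0679). Eci2, the second isomerase, was called in no comparison (0.24, 0.10 and 0.34). Decr1, the 2,4-dienoyl-CoA reductase, and Ech1, a dienoyl-CoA isomerase, fell with cisplatin by 0.44 and 0.59 on the log2 scale. These calls were kept in 12 and 15 of 17 alternative fits. Both were higher with YSJZD than with cisplatin, by 0.70 and 0.98. In FPKM Ech1 was first of the 42 with YSJZD (641 ± 64.2, SD), above Etfb (547 ± 54.9) and Ehhadh (518 ± 112), whose spreads overlap.

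Electron transfer flavoprotein takes electrons from the acyl-CoA dehydrogenases. Its subunits Etfa and Etfb and its oxidoreductase Etfdh fell with cisplatin, by 1.61, 0.69 and 0.48 on the log2 scale, and the Etfdh call was kept in 12 of 17 alternative fits. Etfa and Etfb were higher with YSJZD than with cisplatin (1.06 and 0.68), and Etfdh was not called (0.41). Without YSJZD replicate 1 that value of Etfdh was 0.57 (edgeR adjusted p = 0.0145). None of the 3 was called against control under YSJZD. The FPKM ratio of Etfa to Etfb was 0.425 to 0.477 in control, 0.212 to 0.283 in cisplatin and 0.225 to 0.393 in YSJZD libraries.

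In the peroxisomal spiral 3 of 7 genes fell with cisplatin (Acox2, Acox3 and Scp2), 1 rose (Acaa1b) and 3 were not called. Acox2, the oxidase of branched chains and bile acid precursors, was at 134, 105 and 127 CPM in control, 5.75, 9.53 and 4.78 in cisplatin and 54.1, 76.2 and 103 in YSJZD libraries. The groups did not overlap, and YSJZD replicate 3 lay just under the lowest control library. Acox2 fell with cisplatin (-4.18 ± 0.31, edgeR adjusted p = 4.68e-06) and had the highest value of the 42 with YSJZD against cisplatin (3.54 ± 0.30, adjusted p = 6.1e-05), while YSJZD against control was not called (-0.64 ± 0.27, adjusted p = 0.123). Acox3, a second branched-chain oxidase, fell by 1.59 with cisplatin and was 0.99 higher with YSJZD than with cisplatin.

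Ehhadh, the bifunctional enzyme after the oxidases, was at 1263, 1225 and 1492 CPM in control, 1002, 1167 and 1463 in cisplatin and 1299.9, 1796 and 1164 in YSJZD libraries. All 3 groups overlapped and none of the comparisons was called (-0.13 ± 0.21, 0.23 ± 0.21 and 0.10 ± 0.21, edgeR adjusted p of 0.61, 0.412 and 0.788). With no change called, Ehhadh became the most abundant of the 42 in cisplatin libraries by FPKM (456 ± 62.5, SD), from rank 9 in control (427 ± 67.3), ahead of Etfb (352 ± 64.1), and their spreads overlap. Hsd17b4, the second bifunctional enzyme, was at 276, 259 and 234 CPM in control, 261, 265 and 229 in cisplatin and 323, 379 and 336 in YSJZD libraries. All YSJZD libraries lay above the other 6: the value was 0.46 ± 0.13 against cisplatin (edgeR adjusted p = 0.0207) and 0.43 ± 0.13 against control (adjusted p = 0.0424). The first call was kept in 15 of 17 alternative fits, ending without cisplatin replicate 3 (adjusted p = 0.0599) or YSJZD replicate 2 (adjusted p = 0.0739), and the second in 7 of 17. With cisplatin it was -0.03 ± 0.13 (adjusted p = 0.882). Scp2, a sterol carrier with thiolase activity on branched chains, fell by 1.44 with cisplatin and was 0.97 higher with YSJZD than with cisplatin.

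Peroxisomal thiolase is encoded in the mouse by the close paralogs Acaa1a and Acaa1b. Acaa1b was at 153, 192 and 122 CPM in control, 224, 300.2 and 268 in cisplatin and 345, 429 and 352 in YSJZD libraries. The groups did not overlap. Acaa1b rose with cisplatin (0.76 ± 0.19, edgeR adjusted p = 0.00626) and was higher with YSJZD than in control (1.27 ± 0.19, adjusted p = 0.00172), which was the highest of the 42 in that comparison. Against cisplatin its value was 0.51 ± 0.19 (adjusted p = 0.058). Acaa1a was at 127, 121 and 95.6 CPM in control, 84.4, 115 and 132 in cisplatin and 101, 118 and 105 in YSJZD libraries. Its groups overlapped and it was called nowhere (-0.05 ± 0.18, -0.03 ± 0.18 and -0.08 ± 0.18, edgeR adjusted p of 0.819, 0.908 and 0.789); without a composition factor the first and last were 0.17 and 0.11. The share of Acaa1a in the counts of both was 38.7% to 45.4% in control, 27.4% to 32.9% in cisplatin and 21.5% to 23.0% in YSJZD libraries. RSEM divides reads that fit both paralogs, so the share is an estimate, and Acaa1b also overlaps Dlec1.

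**Figure D4:**
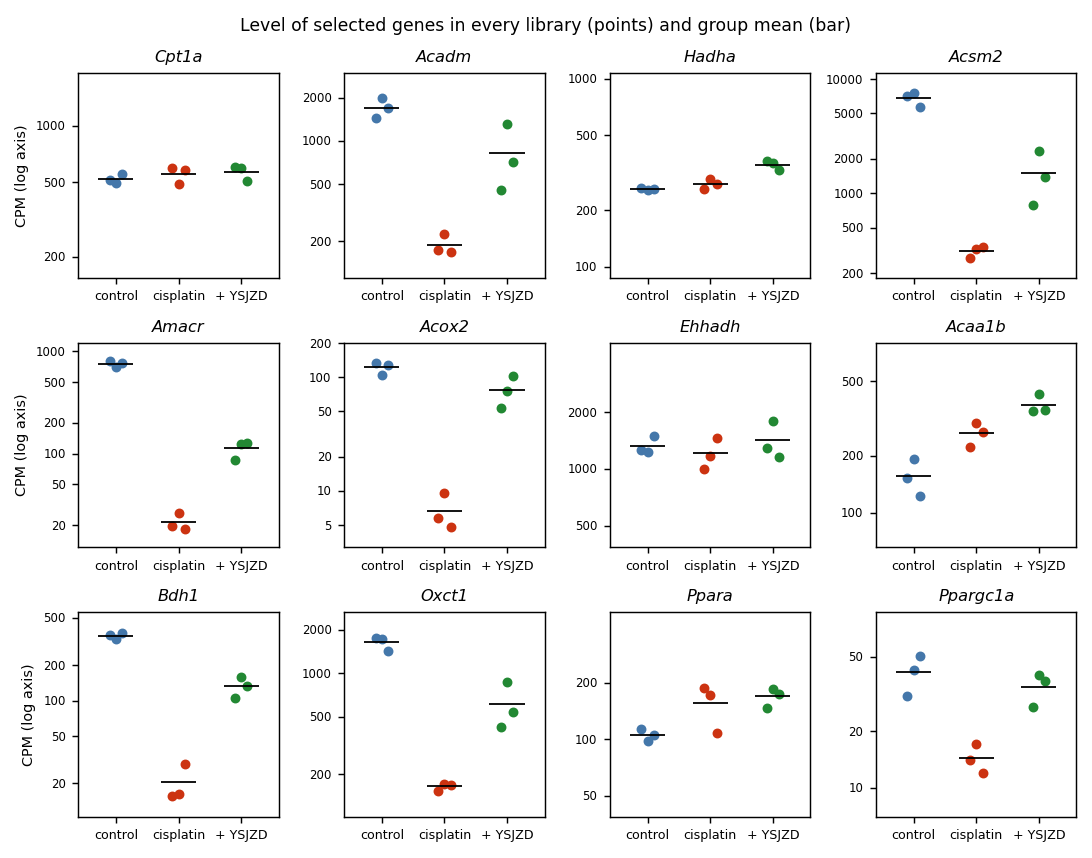
CPM of 12 genes in each library (points, log axis with a scale of its own in each panel) and group mean (bar) for control, cisplatin and cisplatin + YSJZD. Cpt1a and Ehhadh overlap in all groups, Amacr and Acox2 fall to 18.2 to 26.1 and 4.78 to 9.53 CPM with cisplatin, and Acaa1b is ordered control, cisplatin, YSJZD without overlap.

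Branched-chain breakdown held the gene with the lowest log2 fold change of the 42 with cisplatin. Amacr, the racemase that lets branched-chain acyl-CoA enter β-oxidation, was at 808, 698 and 769 CPM in control, 19.6, 26.1 and 18.2 in cisplatin and 86.6, 123 and 128 in YSJZD libraries. The groups were far apart: the cisplatin mean was 2.82% and the YSJZD mean 14.8% of control. Amacr fell with cisplatin (-5.15 ± 0.22, edgeR adjusted p = 8.99e-07), was higher with YSJZD than with cisplatin (2.40 ± 0.20, adjusted p = 5.79e-05) and remained below control (-2.75 ± 0.20, adjusted p = 3.99e-05). Phyh, the hydroxylase that begins α-oxidation of phytanic acid, fell by 1.68 with cisplatin, was 0.86 higher with YSJZD than with cisplatin and was 0.83 lower than control on the log2 scale. Hacl1, the lyase that follows Phyh, was at 36.0, 38.0 and 26.6 CPM in control, 17.9, 31.3 and 24.6 in cisplatin and 43.4, 108 and 74.6 in YSJZD libraries. The cisplatin and control libraries of Hacl1 overlapped (-0.45 ± 0.31, edgeR adjusted p = 0.253), and all YSJZD libraries lay above both. Hacl1 was higher with YSJZD than with cisplatin (1.62 ± 0.32, adjusted p = 0.00374) and than in control (1.17 ± 0.31, adjusted p = 0.0268). Without YSJZD replicate 2, which held its highest level, the value against control was 0.82 (adjusted p = 0.087), and leaving out any control library or YSJZD replicate 3 also ended that call.

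Peroxisomes hand shortened chains to mitochondria as carnitine esters made by Crot, for medium chains, and Crat, for acetyl groups. Crot fell with cisplatin from 537 to 591 CPM to 157, 234 and 374 CPM in replicates 1, 2 and 3 (-1.16 ± 0.29, edgeR adjusted p = 0.00609). It was not called with YSJZD against cisplatin (0.71 ± 0.28, adjusted p = 0.0764), and without cisplatin replicate 3 that value was 1.09 (adjusted p = 0.00789). Crat fell by 0.85 with cisplatin and was 0.61 higher with YSJZD than with cisplatin. Pex11a, which promotes division of peroxisomes, moved the other way. It was at 79.7, 75.8 and 67.1 CPM in control, 84.3, 109.7 and 102 in cisplatin and 125, 135 and 107 in YSJZD libraries. Its rise with cisplatin (0.41 ± 0.15, edgeR adjusted p = 0.0355) was kept in 13 of 17 alternative fits, and it was higher with YSJZD than in control (0.73 ± 0.15, adjusted p = 0.00743).

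All 3 genes of ketone body use were called lower with cisplatin, higher with YSJZD than with cisplatin, and lower with YSJZD than in control. Bdh1, the 3-hydroxybutyrate dehydrogenase, was at 359, 333 and 372 CPM in control, 15.7, 16.4 and 29.3 in cisplatin and 106, 158 and 133 in YSJZD libraries. The groups did not overlap. Its log2 fold changes were -4.12 ± 0.27, 2.70 ± 0.25 and -1.42 ± 0.24 for cisplatin against control, YSJZD against cisplatin and YSJZD against control (edgeR adjusted p of 2.57e-06, 9.61e-05 and 0.00314). Oxct1, the transferase that activates acetoacetate, went from 1425 to 1764 CPM in control to 153 to 173 with cisplatin and to 424, 873 and 538 with YSJZD. Acat1, the acetoacetyl-CoA thiolase, went from 1262 to 1533 CPM to 96.9 to 127 and to 262, 626 and 421. Their YSJZD means stood at 37.3% and 31.4% of control, and that of Bdh1 at 37.4%.

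Bdh1 is counted on a pair of transcripts with different starts, and the estimates for them moved unequally; this was seen in the data and is given with no test. The transcript with the upstream start was at 263, 219 and 288 CPM in control, 1.87, 5.48 and 4.80 in cisplatin and 76.1, 124 and 93.6 in YSJZD libraries. The transcript that starts 6468 bases downstream was at 95.4, 114 and 84.1 CPM in control, 13.8, 10.9 and 24.5 in cisplatin and 29.6, 34.4 and 39.8 in YSJZD libraries. The upstream share of the counts of Bdh1 was 65.7% to 77.4% in control, 11.9% to 33.5% in cisplatin and 70.2% to 78.3% in YSJZD libraries. A long noncoding RNA of the other strand is annotated across the downstream start, and the sources used here do not say whether strand was counted. The sequences before each start are shown so that the starts can be compared. They lie on the plus strand at chr16:31422047-31422279 and chr16:31428503-31428747 (RefSeq, GRCm38.p6), each ends just before the transcript as GENCODE annotates it, and capitals mark CG dinucleotides, 6 in the first and 7 in the second.
Bdh1 upstream start: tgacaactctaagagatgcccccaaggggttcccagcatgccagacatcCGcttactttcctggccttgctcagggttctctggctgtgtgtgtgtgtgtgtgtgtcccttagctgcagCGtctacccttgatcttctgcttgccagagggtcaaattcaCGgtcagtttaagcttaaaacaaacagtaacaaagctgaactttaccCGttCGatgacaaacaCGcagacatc
Bdh1 downstream start: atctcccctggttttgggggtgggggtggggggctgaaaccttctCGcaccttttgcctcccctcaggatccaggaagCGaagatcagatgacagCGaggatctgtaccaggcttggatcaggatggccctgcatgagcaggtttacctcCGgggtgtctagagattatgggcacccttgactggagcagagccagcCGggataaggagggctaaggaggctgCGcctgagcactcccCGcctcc

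**Figure D5:**
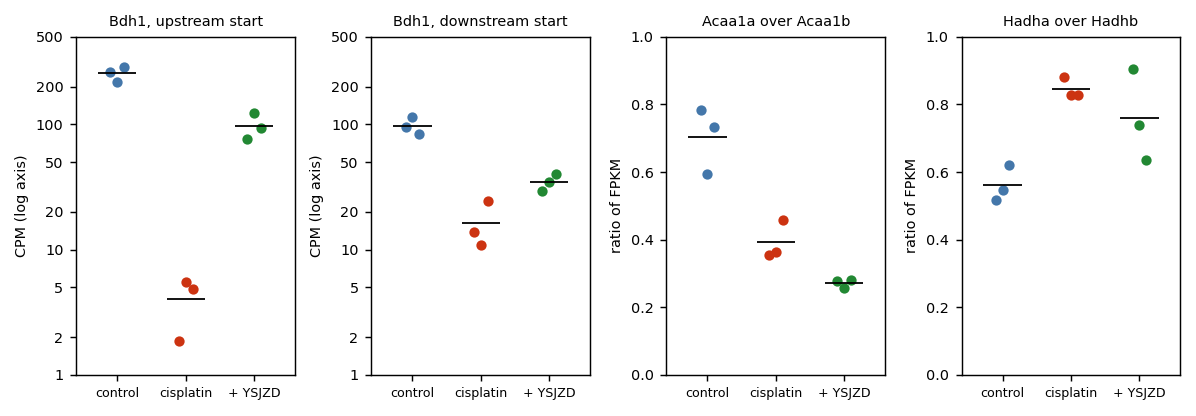
The first 2 panels show CPM (log axis) of the Bdh1 transcripts with the upstream and the downstream start, and the others the FPKM ratios of Acaa1a to Acaa1b and of Hadha to Hadhb, with 1 point per library and a bar at the group mean. The upstream Bdh1 transcript is at 1.87 to 5.48 CPM and the downstream one at 10.9 to 24.5 CPM with cisplatin.

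Acsl1 also changed its make-up while its total was not called in the main fit, again seen in the data and not tested. Its main transcript held 79.3% to 91.3% of the gene's counts in control, 52.1% to 58.8% in cisplatin and 46.1% to 66.1% in YSJZD libraries. A predicted transcript held 0 to 16.6% in control, 34.6% to 39.2% in cisplatin and 27.6% to 38.9% in YSJZD libraries. Acsl1 was not alone in this. A predicted transcript of Ehhadh, whose total was not called either, held 14.2% to 20.5% in control, 29.2% to 41.3% in cisplatin and 20.5% to 26.7% in YSJZD libraries. The split of reads among transcripts of a gene is RSEM's estimate.

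The regulators moved in opposite directions. Ppara was at 113, 97.1 and 105 CPM in control, 188, 171 and 108 in cisplatin and 147, 185 and 174 in YSJZD libraries. Cisplatin replicate 3 lay within the control range. Ppara rose with cisplatin (0.57 ± 0.20, edgeR adjusted p = 0.0332) and was higher with YSJZD than in control (0.68 ± 0.20, adjusted p = 0.037), and each call was kept in 11 of 17 alternative fits. Ppargc1a was at 30.7, 42.5 and 50.4 CPM in control, 14.1, 17.2 and 12.0 in cisplatin and 26.9, 39.7 and 37.0 in YSJZD libraries. The cisplatin libraries lay below all others, and control and YSJZD overlapped. Ppargc1a fell with cisplatin (-1.51 ± 0.22, edgeR adjusted p = 0.000293), was higher with YSJZD than with cisplatin (1.26 ± 0.22, adjusted p = 0.00228) and was at -0.26 ± 0.22 against control (adjusted p = 0.46). It had the lowest FPKM of the 42 in every group.

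For the lists of other genes below, the shares of all tested genes called higher and lower were 28.6% and 26.0% with cisplatin, 17.4% and 18.0% for YSJZD against cisplatin, and 9.93% and 9.37% for YSJZD against control. Like the members, these lists were chosen with earlier results of these data known, so their counts depend in part on that choice. Among 18 genes outside the pathway that are listed here as PPARA targets, 16 were higher and 1 lower with cisplatin. Whether PPARA controls each of them in this tissue was not tested. Their median was 3.33, also with Fgf21, which had no count in control, set at its lower bound, and that of all tested genes 0.04. Angptl4, an inhibitor of lipoprotein lipase, was at 24.2 to 38.8 CPM in control, 306 to 393 in cisplatin and 246 to 315 in YSJZD libraries (3.47 ± 0.20 with cisplatin, edgeR adjusted p = 1.98e-06). Pdk4, the kinase that restrains pyruvate oxidation, rose by 6.38 ± 0.48, the lipid droplet protein gene Hilpda by 4.37 ± 0.28 and the fatty acid ω-hydroxylase gene Cyp4a14 by 6.23 ± 0.44. The 1 that fell, Cyp4a12a, another gene of that family, named after its values were seen, was at 1041, 974 and 1205 CPM in control, 47.1, 84.1 and 164 in cisplatin and 397, 471 and 366 in YSJZD libraries. Its 3 groups did not overlap (-3.45 ± 0.39 with cisplatin, edgeR adjusted p = 5.02e-05, and -1.38 ± 0.36 for YSJZD against control, adjusted p = 0.0227). With YSJZD against cisplatin 3 of the 18 were higher, near the 17.4% of all tested genes, and 5 were lower (18.0% of all tested genes). Cyp4a12a, Cyp4a10 and Vnn1 were higher by 2.06, 1.51 and 1.09, and Hilpda, Pnpla2, Txnip and Pdk4 fell by 3.12, 1.60, 1.52 and 1.40 on the log2 scale. Against control 16 of the 18 were higher and 1 lower with YSJZD, and Cyp4a14 stood at 887 to 1620.0 CPM with YSJZD against 6.48 to 10.7 in control. Macrophage and neutrophil sums moved with cisplatin too, and their part in these genes was not tested.

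Among 47 other genes of fatty acid oxidation, 45 were tested, and 27 were lower and 10 higher with cisplatin (median -1.07). Pecr and Nudt19, peroxisomal enzymes, fell by 4.41 and 4.43 and were higher with YSJZD than with cisplatin by 2.75 and 2.55. Acss2, an acetyl-CoA synthetase, fell by 3.29, and the dehydrogenases Acad9 and Acad10 by 2.40 and 2.84. The thioesterase genes Acot1 and Acot2, close paralogs, rose by 1.86 and 2.35. With YSJZD against cisplatin 26 of the 45 were higher and 5 lower (median 0.78), and against control 10 were higher and 15 lower (median -0.39).

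Of 24 other peroxisome genes, 15 were lower and 1 higher with cisplatin (median -0.65), 10 higher and 1 lower with YSJZD against cisplatin (0.40), and 1 higher and 4 lower against control (-0.31). Catalase (Cat) fell from 1341 to 1559.6 CPM to 398 to 459 CPM and stood at 915 to 1174 CPM with YSJZD. The import factor gene Pex10 fell by 1.84, and Pex11g, related to Pex11a, fell by 1.71 where Pex11a rose. Of 18 citric acid cycle genes, 18 were lower with cisplatin (median -1.31), 15 were higher with YSJZD than with cisplatin (0.72) and 12 were lower with YSJZD than in control (-0.56). Sdha, a subunit of succinate dehydrogenase, fell by 1.75, and Idh2, Ogdh and Idh3g fell by 1.86, 1.40 and 1.37.

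Nuclear receptors and coactivators numbered 25. With cisplatin 14 were lower and 2 higher (median -0.54), where 26.0% and 28.6% of all tested genes were. With YSJZD against cisplatin 9 were higher and 1 lower (median 0.42; 17.4% and 18.0% of all tested genes), and against control 1 was higher and 4 lower (median -0.27; 9.93% and 9.37% of all tested genes). Esrra, the estrogen-related receptor that works with PGC-1α on mitochondrial genes, was at 179, 148 and 152 CPM in control, 44.8, 47.9 and 34.0 in cisplatin and 82.3, 94.7 and 92.8 in YSJZD libraries. The groups did not overlap (-1.92 ± 0.16, 1.09 ± 0.15 and -0.83 ± 0.15, edgeR adjusted p of 8.12e-06, 0.000726 and 0.00491). Hnf4a, a receptor that maintains the proximal tubule program, fell by 2.01 with cisplatin and was 1.33 higher with YSJZD than with cisplatin. Sirt3, a mitochondrial deacetylase, fell by 1.88, and Nr1h3, a liver X receptor, by 1.37.

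Promoter sequence was looked at in the 250 bases before each start, for the 36 members with a RefSeq window (GRCm38.p6, 40 windows of 32851). The PPAR response element, a direct repeat of 2 half-sites with 1 base between (AGGTCANAGGTCA), had no match on either strand in the members' windows, also with 1 mismatch allowed, and matched 0.0335% of all windows (0.484% with 1 mismatch). The estrogen-related receptor motif TCAAGGTCA had no match either (0.387% of all windows). The single half-site AGGTCA, which lies within both motifs, was in 15.0% of member windows and 14.0% of all windows. In the windows of tested genes alone, the half-site was in 11.4% and the estrogen-related receptor motif in 0.282%. The PPAR element was in 0.0353% of these, and in 0.402% with 1 mismatch. Full motifs as rare as these would seldom be met in 40 windows, and sites outside the 250 bases were not searched. The lack of a match therefore cannot tell whether the members have such sites. The GC box GGGCGG was in 21 of the 36 members, and in 61.8% of tested genes with a window. It was in 0 of the 7 members that fell over 4-fold with cisplatin and had a window (Acsm3, Acsm2, Acox2, Bdh1, Oxct1, Acadm and Acsm1), where 45.7% of all tested genes that fell over 4-fold had it. It was in 7 of the 10 that fell 2- to 4-fold (58.5% of such genes), in 3 of the 5 that fell less (65.6%), in 8 of the 9 not called (62.9%) and in 3 of the 5 that rose (62.4%). The median number of CG dinucleotides in the window was 5.0 in the 7 genes that fell over 4-fold and 14.5, 14.0, 14.0 and 8.0 in the other classes, where the median over all windows of tested genes was 14.0. This comparison by class was chosen after the values were seen and has no test. Amacr and Acat1 also fell over 4-fold with cisplatin (-5.15 and -3.70 on the log2 scale) but had no window. Acsm1, Acsm2 and Acsm3 are paralogs that lie close together on chromosome 7, so they are not separate cases. The window of Acadm, at chr3:153944644-153944893 on the minus strand, is shown as one of the 7 without a GC box, to set beside the stretch of Hadhb, which fell less; capitals mark its 12 CG dinucleotides.
Acadm: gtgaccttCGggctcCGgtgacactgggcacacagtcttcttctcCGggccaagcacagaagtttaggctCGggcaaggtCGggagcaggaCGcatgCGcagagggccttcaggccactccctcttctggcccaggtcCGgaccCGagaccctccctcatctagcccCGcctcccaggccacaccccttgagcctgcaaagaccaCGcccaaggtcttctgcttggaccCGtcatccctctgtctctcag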

How the data were processed

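RNA of 9 mouse kidney cortex samples was sequenced on a DNBSEQ instrument, per the labels. The authors deposited a table of 58075 transcripts with estimated counts (expected counts), made with RSEM 1.3.1 per the submitters' processing notes, which also name DESeq2 1.4.5 and list GRCh38 for these mouse samples. Neither an aligner nor a mouse build is stated there (not given in the sources used here). A second set of columns, deposited without a stated unit, was read as FPKM from its values: the transcript lengths that it implies were 1.013 to 1.017 times the annotated length less 200 bases. FPKM of a gene is the sum over its transcripts and has no composition factor. The 6 columns of the authors' group averages were not used.

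Counts were summed per Entrez gene and rounded, since 16.5% to 19.3% of gene counts were not whole within 0.005. Symbols came from RefSeq (GRCm38.p6) for 17847 of 17963 genes. All 9 libraries were fitted together with edgeR 4.0.16 (R 4.3.3): filterByExpr, which left 13954 genes, TMM factors of 0.855 to 1.105, and a quasi-likelihood test with group as the only term. The common biological coefficient of variation came to 0.234. Calls required an adjusted p (Benjamini-Hochberg, all tested genes) under 0.05. The scripts were tested on simulated data.

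The members and gene lists were chosen with earlier results of these data known, and no list was tested as a set. Genes given in full were, in each comparison, the 3 called members with the highest and the 3 with the lowest log2 fold change, members called against most of their role, and Cpt1a, Acadm, Ehhadh, Acaa1a, Acaa1b, Ppara and Ppargc1a. Genes of other lists were up to 4 called genes of smallest p per comparison, less some genes that are not reported here. Other members were added for completeness.

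Each result was computed again in 17 other ways. These changed the tool (DESeq2 1.42.0, or limma-voom from limma 3.58.1), the scaling (size factors of DESeq2, or plain library totals), the filter (none, or 5 CPM or more in 3 libraries), the libraries fitted (the 6 compared, or all but 1 of the 9 in turn) and the model (replicate number as a block). Strand of the counting is not given, and 7 members overlap another protein-coding gene: Acsm3, Echs1, Etfb, Etfdh, Acaa1b, Crat and Pex11a. Promoter sequences came from RefSeq windows, less any stretch annotated as untranslated region.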

Additional observations from a re-analysis of the deposited data

How the results depend on the processing

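Of the members called with cisplatin against control, 22 of 26 lower and 2 of 5 higher were called in each of the 17 alternatives. With YSJZD against cisplatin this held for 25 of 28 higher, and with YSJZD against control for 10 of 12 lower and 3 of 10 higher. No called member reversed its direction, and none moved over 1.5-fold. Members called higher with cisplatin numbered 5, 9 on library totals without a composition factor, which moved the median of all genes to 0.27 and the share of higher calls among all calls from 52.4% to 66.1%, and 2 to 6 with 1 library left out (2 without control replicate 2, control replicate 3 or cisplatin replicate 2). On the same totals the share for YSJZD against control went from 51.4% to 75.4%. Members called higher with YSJZD against control numbered 10, and 3 to 10 with 1 library left out (3 without control replicate 2, 4 without control replicate 3, and 5 when either YSJZD replicate 2 or control replicate 1 was dropped). Members called either way there numbered 22, and 13 to 21 with 1 library left out (13 without control replicate 2). All genes called there numbered 2694, and 1607 to 3138 with 1 library left out (1607 without control replicate 1 and 1699 with the second control dropped). The cause was not tested. The lowest level of a member in any library was 4.78 CPM (Acox2, cisplatin replicate 3).

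Samples with the same replicate number did not deviate together (correlations of -0.197 to 0.092), so no pairing by number was seen. With 3 libraries per group this check cannot exclude pairing or a shared batch. With the replicate number as a block, 6 members were higher with YSJZD than in control, and the adjusted p of Ppara was 0.0543 with cisplatin and 0.0555 with YSJZD, both against control.

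Reversals were limited to values that were called neither way. With cisplatin against control on library totals, Acadl was 0.08, Ehhadh 0.08, Hsd17b4 0.21 and Acaa1a 0.17. With 1 library left out, Hsd17b4 ran from -0.09 to 0.04 and Acaa1a from -0.20 to 0.11. With YSJZD against cisplatin, Cpt1a was -0.01 on library totals. With 1 library left out, Cpt1a ran from -0.05 to 0.11, Acsl1 from -0.07 (without YSJZD replicate 2) to 0.39, Eci2 from -0.00018 to 0.23, Acaa1a from -0.19 to 0.11 and Ppara from -0.09 (without cisplatin replicate 3) to 0.28. With YSJZD against control, Hadhb was -0.02 with DESeq2 or its size factors and -0.0014 with the replicate block. On library totals Etfb was 0.18, Etfdh 0.13 and Acaa1a 0.11. With 1 library left out, Hadhb ran from -0.07 to 0.10, Etfb from -0.14 to 0.07, Etfdh from -0.25 to 0.09 and Ehhadh from -0.10 to 0.22. The cause was not tested.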
